A study of Mus musculus with 8 samples.

Results

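The thermogenic genes described here are Ucp1, Ppargc1a, Prdm16 and Otop1, 4 of the 50952 gene rows of an RNA-seq table. They were taken by symbol, in a set chosen with earlier results of these data known. The tissue was subcutaneous white fat of wild-type C57BL/6J mice at 9 months of age, either calorie restricted (CR) for 6 months from the age of 3 months or fed ad libitum (AL). Of the 8 mice in the labels, 4 on each diet, the table has 4 CR libraries (CR1 to CR4) and 3 AL libraries (AL2 to AL4), and its columns name the diet and not the labelled mouse. No library is stated to be a pool, and the labels used here do not give the sex, the degree of restriction or the housing temperature. Values are TPM, read abundance per gene length scaled to a fixed total per library, as the authors deposited them. Rows with a deposited false discovery rate (FDR) under 0.05 were not analysed here.

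Thermogenic fat cells burn fuel for heat. Ucp1 encodes the inner mitochondrial membrane carrier that lets protons return to the matrix without making ATP, and it is the defining transcript of brown and beige fat cells. Prdm16 is a zinc finger coregulator that sets the brown and beige fate, and Ppargc1a encodes PGC-1alpha, a coactivator that drives mitochondrial biogenesis and is induced through beta-adrenergic and cAMP signalling. Otop1 encodes a proton channel, first known from the inner ear of the mouse, whose transcript is enriched in brown over white fat. Subcutaneous fat is the mouse depot best known for gaining beige cells.

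The label of the tissue matched its markers. Of 15 adipocyte markers 8 had a row, and their summed level was 73092 to 84111 TPM in CR and 92427 to 108866 TPM in AL. Among 8 listed markers of brown and beige cells, 3 had a row (Ucp1, Tbx1 and Tnfrsf9), and Cidea, Elovl3, Cox8b, Dio2 and Tmem26 were not analysed here. Reads recovered from the steps of the TPM values summed to 4115918 to 5583836 in CR and 5122019 to 8833444 in AL over 22870 rows. In 20840 rows with up to 1000 reads they came out whole, and in rows above 1000 reads they were rounded. These sums leave out the other rows and are not the full depth of a library. Libraries stood apart from the rest. AL2 held skeletal muscle transcripts: the 4 of 20 muscle markers with a row summed to 0.707 to 10.3 TPM in CR, 73.2 TPM in AL2, 4.45 TPM in AL3 and 2.17 TPM in AL4. Among them the myosin heavy chain gene Myh1 stood at 64.2 TPM in AL2 and at 9.80 TPM or less elsewhere, and the muscle determination factor gene Myod1 stood at 8.62 TPM in AL2 and at 0 in CR2, CR3, AL3 and AL4. In AL3 the clock repressor gene Bhlhe40, named after its values were seen, was at 14.0 TPM, against 140 to 158 TPM in CR and 113 and 141 TPM in the other AL libraries.

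The windows around the starts of Ucp1 and Ppargc1a are shown because these are the members that cAMP signalling is known to induce. They are reference sequences from RefSeq on GRCm38.p6, 250 bases before to 50 bases after the start, read 5′ to 3′ on the gene's strand. Capitals mark matches to TGACG (the cAMP response element half-site), AGGTCA (a nuclear receptor half-site) or TATATA on either strand. The Ucp1 window is chr8:83290098-83290397 on the plus strand and the Ppargc1a window is chr5:51567676-51567975 on the minus strand.
Ucp1: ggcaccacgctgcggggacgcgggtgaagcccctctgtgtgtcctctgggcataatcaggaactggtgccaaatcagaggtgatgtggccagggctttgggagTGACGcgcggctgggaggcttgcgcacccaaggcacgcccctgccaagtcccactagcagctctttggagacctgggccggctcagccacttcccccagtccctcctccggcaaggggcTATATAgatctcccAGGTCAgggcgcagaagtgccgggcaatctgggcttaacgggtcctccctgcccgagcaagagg
Ppargc1a: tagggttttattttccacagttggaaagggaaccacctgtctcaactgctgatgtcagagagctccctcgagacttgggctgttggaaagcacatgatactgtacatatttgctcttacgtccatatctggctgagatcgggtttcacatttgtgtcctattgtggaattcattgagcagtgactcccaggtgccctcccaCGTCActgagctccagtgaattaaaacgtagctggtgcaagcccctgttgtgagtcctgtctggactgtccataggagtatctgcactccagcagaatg

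Each of these windows held 1 TGACG, beginning at -147 from the start of Ucp1 and at -49 from the start of Ppargc1a, there on the opposite strand. The same letters occurred in 20.8% of 32851 windows of that length. Ucp1 also held TATATA at -28 (5.67% of windows) and AGGTCA at -14 (16.3%). The whole palindrome TGACGTCA, which contains TGACG, was in neither window and in 1.79% of all windows. CCAAT and TATAAA, also searched on both strands, matched in neither. In the windows of Prdm16 (chromosome 4) and Otop1 (chromosome 5) no motif marked by capitals in the sequences above matched. Prdm16 held CCAAT at -98 (37.4% of windows). The GC box GGGCGG matched once for Prdm16 and at 2 places for Otop1, as it did in 35.7% of windows. A match of letters does not show that a factor binds there.

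Ucp1 was the member with the widest spread relative to its mean, and its level in AL depended on 1 library. It stood at 2.79, 8.51, 6.78 and 7.16 TPM in CR1, CR2, CR3 and CR4, against 6.20, 0.401 and 0.663 TPM in AL2, AL3 and AL4. All 4 CR libraries were above AL3 and AL4, and AL2 lay among the CR libraries, above CR1. These values rest on 17 to 57 reads per CR library, and on 43 reads in AL2, 2 in AL3 and 6 in AL4. The exact 95% Poisson interval was 0.0486 to 1.45 TPM for AL3 and 0.243 to 1.44 TPM for AL4, below the 1.63 TPM at which the interval of the lowest CR library begins. These intervals cover counting error alone.

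Over all libraries Ucp1 averaged 6.31 ± 2.46 TPM in CR (SD, n = 4) and 2.42 ± 3.28 TPM in AL (SD, n = 3), a ratio of means of 2.61. In the limma fit across 9883 genes, 18.2% of genes were called at an adjusted p under 0.05, 54 (0.546%) higher in CR and 1742 (17.6%) lower, and 0 of the 4 members were among them. The Ucp1 difference, CR minus AL on the log2(TPM + 1) scale, was 1.43 ± 0.57 (SE), with a 95% interval of 0.12 to 2.75 and a limma adjusted p of 0.114. The two-sided exact permutation test over 35 assignments gave p = 0.143, where the smallest possible is 0.0286. In the authors' deposited table Ucp1 has an FDR of 0.0668.

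**Figure D1:**
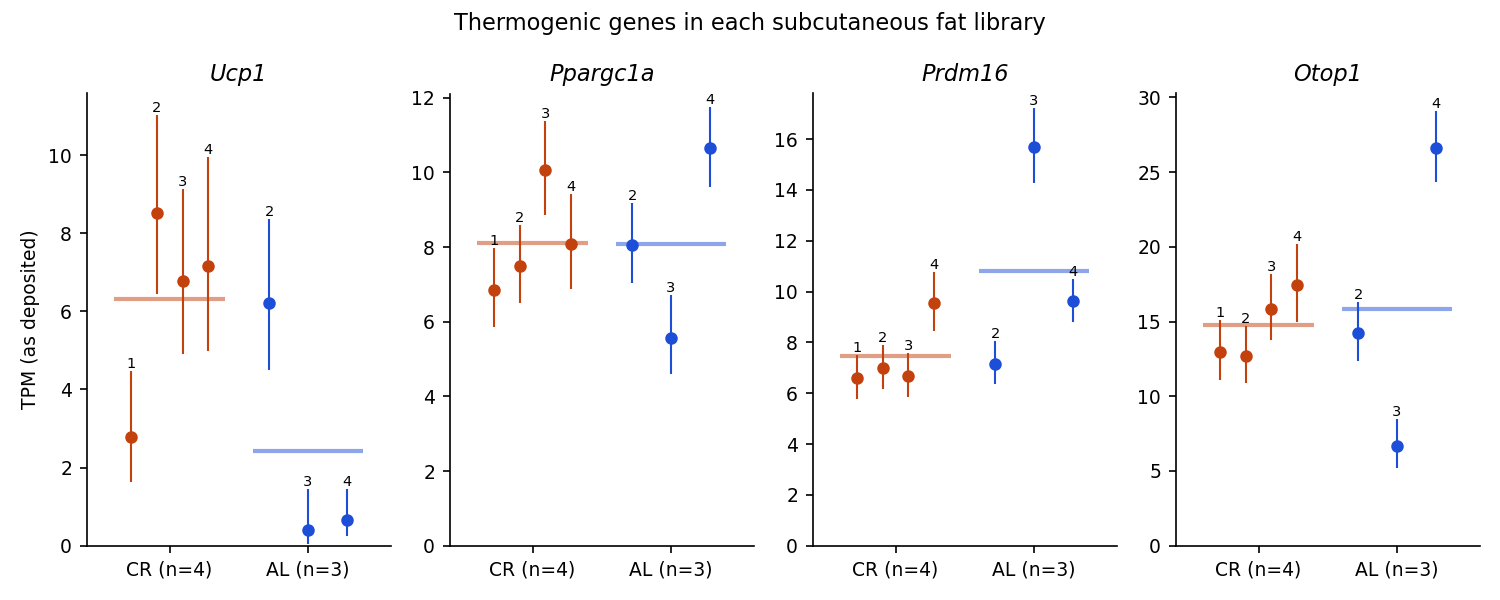
Deposited TPM (vertical axes) of the 4 thermogenic genes in each library, with CR left of AL; the number above a point is the library's number, vertical lines are exact 95% Poisson intervals from the recovered reads, and horizontal bars are group means. For Ucp1, AL2 at 6.20 TPM lies among the CR libraries while AL3 and AL4 are below 1 TPM; for Prdm16 and Otop1 the AL points spread more widely than the CR points.

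Without AL2, the library with muscle transcripts, the diets did not overlap for Ucp1, and 4.56% of tested genes were higher in CR without overlap. They did not overlap without CR1 either (ratio of means 3.09), where 3.49% of tested genes were higher and 34.1% lower without overlap. AL2 above CR1 was the only crossing between the diets for Ucp1. Leaving out either library therefore had to separate the diets, and neither separation is a further result. Without AL2 the mean was 6.31 ± 2.46 TPM in CR (SD, n = 4) and 0.532 ± 0.185 TPM in AL (SD, n = 2), a ratio of 11.9 that rests on 152 reads in CR and 8 in AL. In that fit Ucp1 was higher in CR by 2.18 ± 0.37 (SE) on the log2(TPM + 1) scale, with a limma adjusted p of 0.0197. Of 9517 genes 14.4% were called, 0.893% higher and 13.5% lower. The filter of 1 TPM in 4 or more libraries was met there by Ucp1 through the CR libraries alone. A gene expressed in the AL libraries alone could not have met it, so this call and these shares are no independent support. The fit on all libraries has the same limit. There a gene expressed in the 3 AL libraries alone could not enter, while the 4 CR libraries alone sufficed. With libraries rescaled to a common median ratio between genes (median-ratio scaling), the difference without AL2 was 2.29 and the limma adjusted p 0.0694, and 0.126% of genes were called higher. That scaling is given because the median of all tested genes lay at -0.20 on the deposited scale. The rows analysed here held 42.9% to 45.0% of the TPM total in the CR libraries and 49.0% to 53.1% in the AL libraries. Differences on the deposited scale are thus relative to totals that include other rows. The part of this gap in the genes called lower in CR was not tested. Without AL2 the two-sided exact permutation p was 0.0667, the smallest that 15 assignments allow. Without AL3 the Ucp1 difference was 1.00 (limma adjusted p = 0.302) and without AL4 it was 1.12 (adjusted p = 0.250). Whether muscle RNA in AL2 had a part in its Ucp1 level was not tested. In whole tissue, fewer cells of a type and less RNA per cell cannot be told apart.

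Ppargc1a did not separate the diets. It stood at 6.85, 7.49, 10.1 and 8.07 TPM in CR1 to CR4, against 8.05, 5.57 and 10.6 TPM in AL2, AL3 and AL4. The lowest and the highest library were both AL on the deposited scale. After median-ratio scaling AL3 was still lowest, and CR3 (10.5 TPM) was above AL4 (9.97 TPM). The means were 8.12 ± 1.39 TPM in CR (SD, n = 4) and 8.09 ± 2.53 TPM in AL (SD, n = 3). The difference was 0.03 ± 0.20 (SE) in log2(TPM + 1), with a 95% interval of -0.44 to 0.50 (limma adjusted p = 0.928), and 0.22 after median-ratio scaling. It turned to -0.18 without AL3 and to -0.07 without CR3 on the deposited scale. In GENCODE M21, 4 genes overlap Ppargc1a, 1 of them on the opposite strand, so its reads are uncertain by as much as those genes share them.

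On the deposited scale Prdm16 was highest in AL3 and lowest in CR1, and after median-ratio scaling it was lowest in AL2. Its level was 6.60, 7.00, 6.67 and 9.55 TPM in CR1 to CR4, against 7.16, 15.7 and 9.62 TPM in AL2, AL3 and AL4. CR4 lay apart from the other CR libraries and close below AL4, and the diets overlapped because AL2 was below CR4. The means were 7.46 ± 1.41 TPM in CR (SD, n = 4) and 10.8 ± 4.39 TPM in AL (SD, n = 3). The difference was -0.43 ± 0.24 (SE) in log2(TPM + 1), with a 95% interval of -0.98 to 0.11 (limma adjusted p = 0.230). After median-ratio scaling it was -0.24, and it was 0.000824 there when AL3 was left out. Without AL2 the difference was -0.67 on the deposited scale (limma adjusted p = 0.0789), where the diets did not overlap; 39.5% of tested genes were lower in CR without overlap there. After scaling it was -0.45 (adjusted p = 0.215), and the diets overlapped, since AL4 was then below CR4. In GENCODE M21, 3 genes on the opposite strand overlap Prdm16, so its reads are uncertain without the strand setting of the counting.

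Otop1 was the most abundant of the 4 per length in 6 of 7 libraries. It stood at 13.0, 12.7, 15.9 and 17.4 TPM in CR1 to CR4, against 14.2, 6.69 and 26.6 TPM in AL2, AL3 and AL4. The CR libraries lay close together between the extremes of AL. The means were 14.7 ± 2.31 TPM in CR (SD, n = 4) and 15.9 ± 10.1 TPM in AL (SD, n = 3). The difference was 0.08 ± 0.37 (SE) in log2(TPM + 1), with a 95% interval of -0.77 to 0.92 (limma adjusted p = 0.899). It turned to -0.39 without AL3 and was 0.53 without AL4. AL4 also had the highest sum of the 11 of 13 nerve and Schwann cell markers with a row, at 955 TPM, against 429 to 601 TPM in CR and 537 and 543 TPM in AL2 and AL3. The noradrenergic enzyme gene Dbh, in that list, was at 0 in every library. The part of nerve transcripts in the Otop1 level was not tested.

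**Figure D2:**
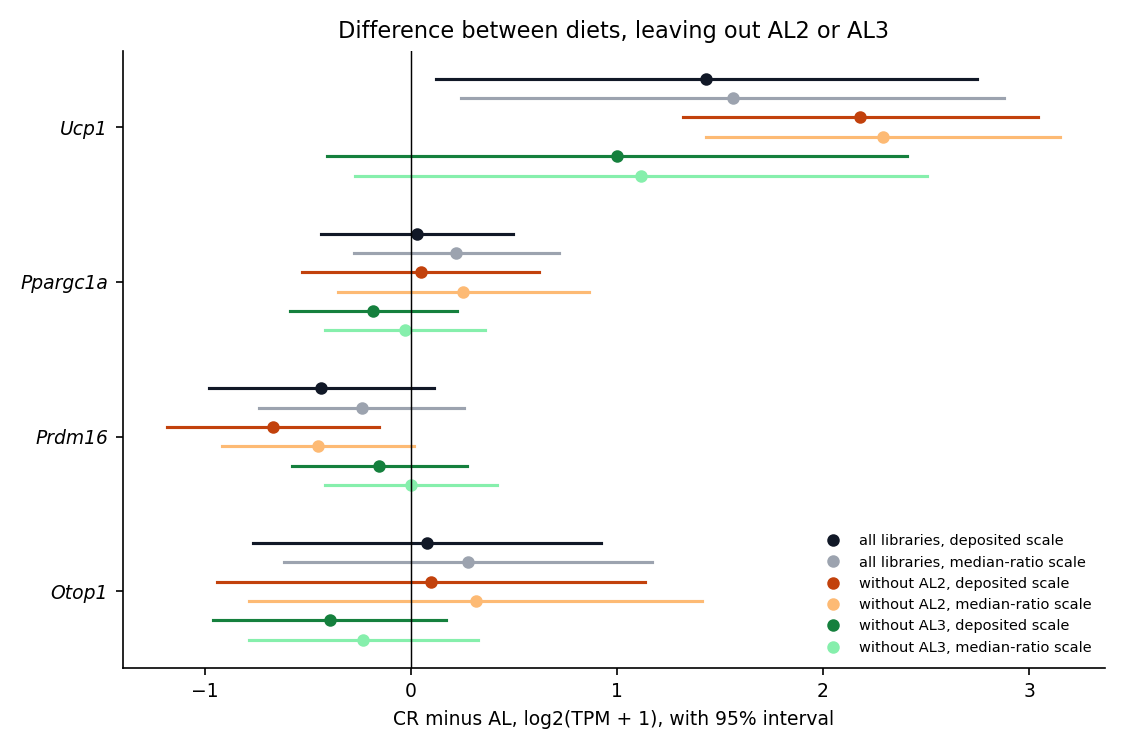
Difference between CR and AL in log2(TPM + 1) (horizontal axis) for each thermogenic gene, with points for the estimate and lines for the 95% interval, fitted on all libraries, without AL2 and without AL3, each on the deposited and the median-ratio scale. The Ucp1 interval lies above 0 with all libraries and without AL2, and spans 0 without AL3.

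The AL libraries did not deviate in 1 common order across the 4 genes. On the deposited scale AL3 was lowest for Ucp1, Ppargc1a and Otop1 and highest for Prdm16, while AL4 was highest for Ppargc1a and Otop1 and second lowest for Ucp1. The coefficient of variation was 39.0% in CR and 135% in AL for Ucp1, 17.1% in CR and 31.3% in AL for Ppargc1a, 18.9% in CR and 40.6% in AL for Prdm16, and 15.6% in CR and 63.6% in AL for Otop1. With 4 and 3 libraries this gap in spread was not tested. For Otop1 the Poisson intervals of AL3 (5.21 to 8.45 TPM) and AL4 (24.4 to 29.1 TPM) did not overlap.

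The genes most like each member were the 3 with the smallest mean absolute difference in log2 level over the 7 libraries, each gene centred on its own mean after median-ratio scaling, among 5799 genes with a mean of at least 5 TPM. For Prdm16 the nearest was Ccng2, cyclin G2, an inhibitor of the cell cycle, at a difference of 0.06, with 28.5, 30.3, 29.4 and 39.8 TPM in CR1 to CR4 and 28.8, 60.3 and 36.5 TPM in AL2, AL3 and AL4. Like Prdm16 it was highest in AL3. Lrrc45 and Apbb3 followed at 0.10 and 0.12. Gstm7, a glutathione transferase gene, was nearest to Ppargc1a at 0.05, ahead of the pseudogene Anapc15-ps at 0.08 and the myosin light chain gene Myl4 at 0.09. The immediate early gene Ier3, at 0.21, was nearest to Otop1, with Dnajb3 at 0.21 and Angptl6 at 0.22. The nearest genes to Ucp1 were Fbp2, a fructose bisphosphatase of muscle, at 0.40, the histone gene Hist1h4i at 0.54 and the glycogen targeting subunit gene Ppp1r3c at 0.55, where the mean deviation of Ucp1 from its own mean was 0.98. The same own deviation was 0.22 for Ppargc1a, 0.26 for Prdm16 and 0.38 for Otop1. Fbp2 stood at 17.2, 14.5, 15.3 and 22.1 TPM in CR1 to CR4 and at 24.6, 4.69 and 4.31 TPM in AL2, AL3 and AL4.

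**Figure D3:**
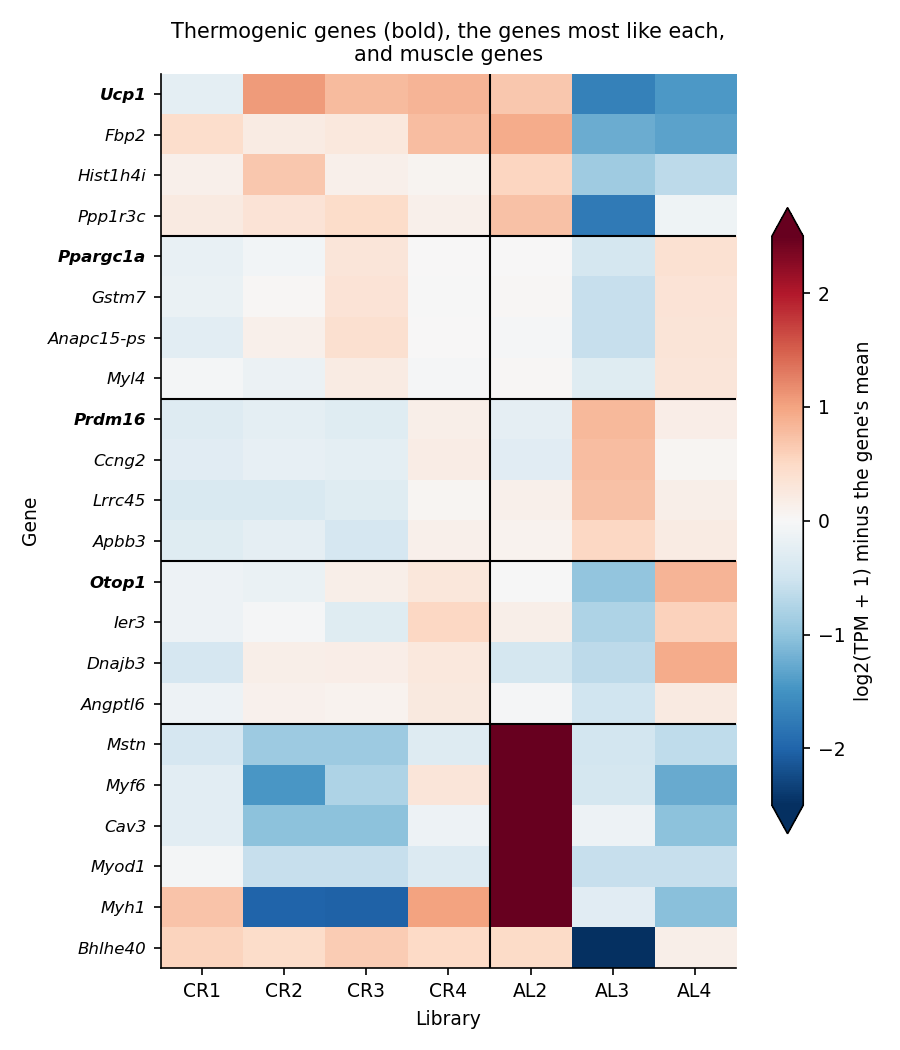
Log2(TPM + 1) minus the gene's mean over the 7 libraries (colour, which saturates at both ends of its scale), for the 4 thermogenic genes in bold, the 3 genes most like each below it, and at the bottom 5 muscle genes and Bhlhe40, of which Mstn, Myf6, Cav3 and Bhlhe40 were chosen after their values were seen; CR libraries are left of AL libraries. The muscle genes are high in AL2 and Bhlhe40 is low in AL3, at 14.0 TPM.

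Few close relatives of Ucp1 and Otop1 could be described. Ucp2 and Ucp3 were not analysed here, and Otop2 and Otop3 were listed at 0 in all 7 libraries. Of the Prdm family 13 of 15 genes had a row and 5 were tested. Prdm4, a zinc finger regulator that fell on the deposited scale, was at 10.4 ± 1.40 TPM in CR (SD, n = 4) and 15.0 ± 0.757 TPM in AL (SD, n = 3), with a limma adjusted p of 0.0242, and it was 1 of 5 tested, a share near the 17.6% of all tested genes that were called lower. After median-ratio scaling its adjusted p was 0.135, and it was not called without AL2. Mecom, the closest relative of Prdm16, had 3.20 ± 0.343 TPM in CR (SD, n = 4) and 3.60 ± 0.463 TPM in AL (SD, n = 3). Prdm12 and Prdm14 were at 0 throughout, and Prdm13 was at 0 in all libraries but CR2. Among 41 mitochondrial carriers 17 had a row and 16 were tested, and 2 fell on the deposited scale, a smaller share than the 17.6% of all tested genes. These were Slc25a45 and Slc25a14, an uncoupling protein relative, which averaged 4.48 ± 0.575 TPM in CR (SD, n = 4) and 7.01 ± 0.794 TPM in AL (SD, n = 3) (limma adjusted p = 0.0304). Without AL2 neither was called, and the 1 called carrier was Ucp1, higher in CR, beside 0.893% of all tested genes called higher.

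In the lists of the thermogenic programme, each gene that passed the test on all libraries was lower in CR. On the deposited scale 7 of 25 tested genes of thermogenic transcription fell and 0 rose, with a median difference of -0.23 against -0.20 for all tested genes, of which 17.6% were called lower and 0.546% higher. Among them were the thyroid hormone receptor gene Thra, at 90.4 ± 3.59 TPM in CR (SD, n = 4) and 114 ± 3.69 TPM in AL (SD, n = 3), and the histone methyltransferase gene Ehmt2, at 69.2 ± 1.96 TPM in CR (SD, n = 4) and 94.2 ± 10.4 TPM in AL (SD, n = 3). The retinoid X receptor genes Rxra and Rxrg were the others named by rule. Without AL2, Thra and Ehmt2 were the 2 called genes of that list, both lower in CR, beside 13.5% of all tested genes. Of 21 tested repressors of the programme 3 fell, a share below the 17.6% of all tested genes: the corepressor gene Ncor1, Ctbp2 and the receptor gene Notch1. Notch1 was not called without AL2. Ctbp2, a corepressor that Prdm16 recruits to silence white fat genes, averaged 10.9 ± 1.22 TPM in CR (SD, n = 4) and 16.6 ± 1.81 TPM in AL (SD, n = 3), with a limma adjusted p of 0.0175. Its homologue Ctbp1 was at 129 ± 4.65 TPM in CR (SD, n = 4) and 136 ± 3.52 TPM in AL (SD, n = 3). In the list of Prdm16 partners, 2 of 20 tested genes fell, also below that share, Ctbp2 and the histone demethylase gene Kdm1a.

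Around PGC-1alpha, 3 of 30 tested partners and targets fell and 0 rose on the deposited scale, against 17.6% of all tested genes that fell and 0.546% that rose. Prkaa1, a catalytic subunit of AMP-activated kinase, averaged 39.1 ± 1.87 TPM in CR (SD, n = 4) and 54.6 ± 3.03 TPM in AL (SD, n = 3) (limma adjusted p = 0.0136). The acetyltransferase gene Ep300 and the mitochondrial DNA polymerase gene Polg were the other two. Without AL2 these 3 genes were called again, beside 13.5% of all tested genes lower and 0.893% higher. Prkaa2, the other catalytic subunit gene, was called higher in CR there, by 0.60 ± 0.13 (SE) in log2(TPM + 1) (limma adjusted p = 0.0288). With all libraries Prkaa2 averaged 19.2 ± 0.822 TPM in CR (SD, n = 4) and 18.9 ± 11.3 TPM in AL (SD, n = 3). It did not pass there (limma adjusted p = 0.725), and its highest level, 31.7 TPM, was in AL2. Of 31 tested genes of adrenergic and cAMP signalling 12 fell, with a median of -0.28, against 17.6% of all tested genes called lower and a median of -0.20. They included Gnai2, an inhibitory G-protein subunit gene, at 202 ± 13.9 TPM in CR (SD, n = 4) and 292 ± 31.3 TPM in AL (SD, n = 3), the kinase subunit gene Prkacb, the phosphodiesterase gene Pde3b and the BMP receptor gene Bmpr1a. Without AL2, 9 genes of that list were called, all lower in CR, and 8 of them were among the 12. Endothelial markers moved the same way: 4 of 8 tested were called lower (Pecam1, Tek, Egfl7 and Esam), with a median of -0.35, and so was the pericyte gene Rgs5. Adipocyte markers had a median of -0.28, and 1 of 8 tested, Plin1, was called lower. After median-ratio scaling 0 genes of these marker lists were called. The part of vessel transcripts in the adrenergic and cAMP counts was not tested. Adrb1, the beta-1 adrenergic receptor gene, named after its values were seen, stood at 8.72 ± 1.22 TPM in CR (SD, n = 4) and 14.3 ± 4.64 TPM in AL (SD, n = 3) and did not pass (limma adjusted p = 0.0848).

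Of 35 listed brown and beige effectors 9 had a row and 7 were tested, and 0 passed with all libraries. Without AL2, Ucp1 passed, beside 0.893% of all tested genes called higher. It met the filter there through the CR libraries alone, and after median-ratio scaling it did not pass (limma adjusted p = 0.0694). In the list of beige cell markers 1 of 5 tested genes fell, a share near the 17.6% of all tested genes. It was the position gene Hoxc9, at 26.5 ± 1.91 TPM in CR (SD, n = 4) and 35.9 ± 1.83 TPM in AL (SD, n = 3) (limma adjusted p = 0.0153). Tbx1, a transcription factor gene used as a beige marker, was at 7.68 ± 3.22 TPM in CR (SD, n = 4) and 6.30 ± 0.789 TPM in AL (SD, n = 3). Tnfrsf9, also used as a beige marker, went the other way, at 0.340 ± 0.177 TPM in CR (SD, n = 4) and 0.847 ± 0.102 TPM in AL (SD, n = 3). It was below the filter of 1 TPM in every library and was not tested. After median-ratio scaling 0 members of any of these lists were called by limma, where 5 of 9883 genes (0.0506%) were. At an unadjusted p under 0.05 there, 3 adrenergic genes were higher and 5 lower, and 7 PGC-1 partners and targets were higher and 2 lower, beside 15.8% of all tested genes higher and 13.2% lower. Every list lacks the rows not analysed here, so these counts cover part of each.

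**Figure D4:**
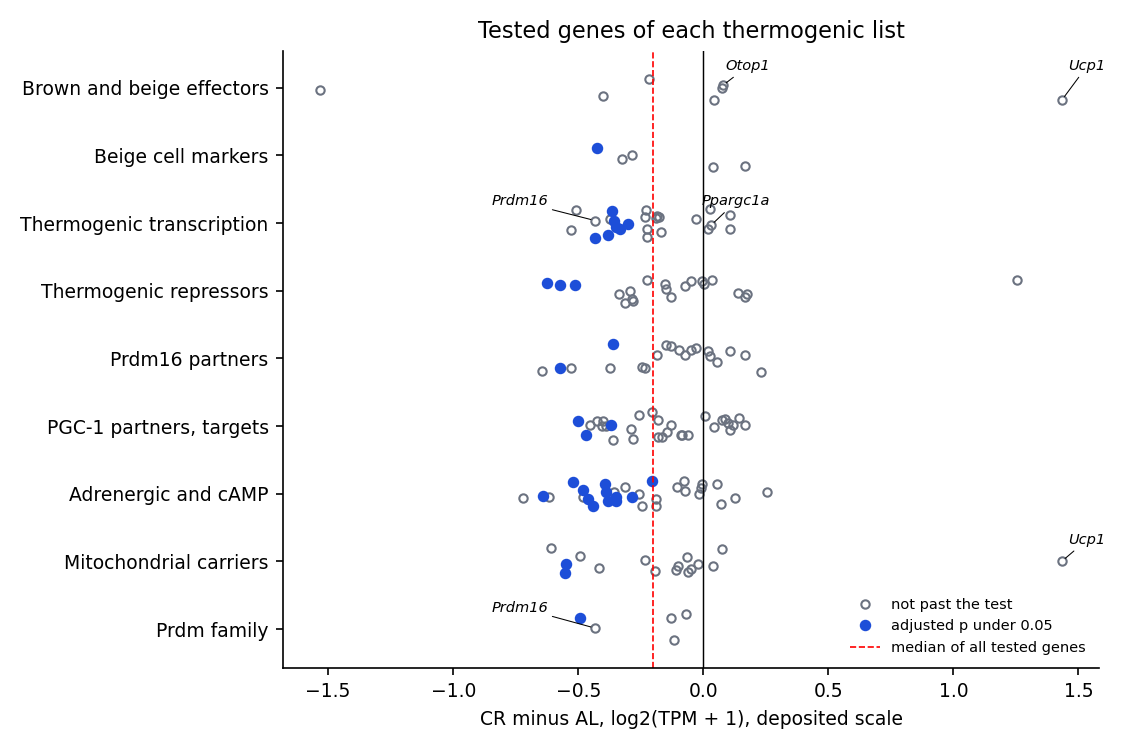
Difference between CR and AL in log2(TPM + 1) on the deposited scale (horizontal axis) for each tested gene of 9 lists; filled points passed limma at an adjusted p under 0.05, open points did not, and the dashed line is the median of all tested genes at -0.20. All filled points lie below 0, and Ucp1 lies farthest to the right at 1.43 without passing.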

How the data were processed

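Per the file headers, the deposited table gives TPM for each Ensembl gene in 7 libraries, beside the authors' own FDR, an adjusted p-value. Reads were processed, per the submitters' processing notes, with edgeR 3.38.4, featureCounts 2.0.3, SAMtools 1.17, STAR 2.7.10b and FastQC 0.12.1 on GRCm39. The sources used here give no annotation, strand setting or test behind the FDR, and the protocol names both rRNA depletion and poly-A purification, while the design text names only the second. The smallest FDR among the rows was 0.0500. Genes reaching 1 TPM in 4 or more libraries were fitted as log2(TPM + 1) with limma 3.58.1 (R 4.3.3), diet as the only term and a variance trend, two-sided, with Benjamini-Hochberg adjustment over all 9883 genes. The added 1 TPM understates changes of low genes. The design assumed 8 libraries and the table holds 7. The series' design text calls the samples biological replicates without tying them to litters or batches.

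TPM times GENCODE M21 (GRCm38) exon length is a whole multiple of the value of 1 read, within 0.05 for 94.6% of 22041 rows with up to 1000 reads. For Otop1 the reads came out whole at 3433 bases in place of 3442. M21 served for names, lengths and overlaps, and no coordinate was compared with the deposited build. The fit was tested on simulated data.

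The members and gene lists were chosen with earlier results of these data known. The text names the members, their families, the 3 genes most like each and, per list, the called genes lowest in adjusted p (at most 4), otherwise the most abundant. Python 3.11.15 with numpy 2.4.6, pandas 2.3.3, scipy 1.17.1 and matplotlib 3.10.9 was used. Alternatives were pseudocounts of 0.1, 0.5 and 5, other filters, median-ratio scaling, no variance trend, robust moderation, leaving out each library, and voom on recovered reads.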

Additional observations from a re-analysis of the deposited data

Results flagged for a closer look

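In a group of 4, a library was singled out where its gap to the nearest other library relative to the whole range exceeded Dixon's 95% critical value, which chance gives in about 0.05 of groups. Of 79 named genes 8 met it among the CR libraries. Prdm16 did in CR4, at 9.55 TPM beside 6.60 to 7.00 TPM in the other CR libraries, and so did Ccng2 and Lrrc45 among the genes most like it, at 39.8 TPM and 20.2 TPM in CR4. Those were chosen for sharing the Prdm16 profile and are no separate result. Hist1h4i was at 16.5 TPM in CR2 beside 10.6 to 11.1 TPM. Notch1 was low in CR4, at 10.3 TPM beside 12.0 to 12.3 TPM, and Slc25a45 was low in CR3, at 6.45 TPM beside 8.37 to 8.76 TPM. The macrophage and microglia receptor gene Trem2 stood at 5.38 TPM in CR2 beside 0.261 to 0.978 TPM. Prdm13 was at 0.0571 TPM in CR2 and at 0 in the other CR libraries. A gene above 0 in 1 library of a group alone always meets the rule, so this flag carries no information. Genes at 0 throughout could not meet it but are among the 79.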

How the results depend on the processing

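The Ucp1 difference kept its direction under all 23 alternatives tried and passed under 1. With 1 library left out it ranged from 1.00 to 2.18 in log2(TPM + 1) on the deposited scale, the highest being the call without AL2, and from 1.12 to 2.29 after median-ratio scaling, a pairing of choices made after seeing the data. It was 0.66 at a pseudocount of 5 and 2.15 at 0.1, and 2.40 with voom (adjusted p = 0.067). Over the alternatives its limma adjusted p lay between 0.0197 and 0.302. Leaving out 1 library gave -0.18 to 0.23 for Ppargc1a, -0.67 to -0.15 for Prdm16 and -0.39 to 0.53 for Otop1 (-0.00185 without CR4), and after median-ratio scaling -0.028 to 0.43, -0.45 to 0.000824 and -0.23 to 0.74. None of these 3 passed under any alternative.

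Genes called over the table were 1796, and 5 after median-ratio scaling, 742 without a filter (more genes tested) and 0 with voom on recovered reads. With 1 library left out they were 662 to 1596, and 0 to 71 after scaling (12 without AL2). After median-ratio scaling, with or without AL2, called members of each list were 0. Without AL2 on the deposited scale, 0.893% of all tested genes were called higher in CR and 13.5% lower. Called higher were Ucp1, counted in 3 lists (1 thermogenic gene, 1 effector and 1 carrier), and 1 respiratory chain gene, Atp5g1. Called lower were Hoxc9 and Slc7a10, 2 of 5 tested in the list of beige cell markers, and 2 of 25 transcription genes. So were 3 of 21 repressors, 3 of 20 Prdm16 partners and 9 of 31 adrenergic and cAMP genes. Among 30 PGC-1 partners and targets 1 was higher and 3 lower, and 0 of the Prdm family were called. Apart from fewer samples or more genes tested, the cause was not tested. The quasi-likelihood count test was not run, as the files give no counts. No paired analysis was possible because the columns carry no number that ties libraries across diets. Ucp1 in AL3 and AL4 rests on 2 and 6 reads, which limits any fold. Without AL2, Ucp1 met the expression filter through the CR libraries alone.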

Other observations

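Heat-producing cycles that do not need Ucp1 were described by few rows. Of 32 listed genes 9 had a row and 5 were tested, and 0 passed. The adenine nucleotide carrier gene Slc25a4 was at 524, 530, 541 and 484 TPM in CR1 to CR4 and at 895, 395 and 455 TPM in AL2, AL3 and AL4, highest in the library with muscle transcripts. The creatine kinase gene Ckmt1 was at 0.431 TPM or less in every library, and the sarcoplasmic reticulum peptide gene Sln was above 0 in AL2 and CR4 alone. Of 82 listed nuclear genes of the respiratory chain 6 had a row, so the list could not be described. Of these, 5 were tested and 0 passed with all libraries. Atp5g1, an ATP synthase subunit gene, differed by 0.19 in log2(TPM + 1), CR minus AL. Cox7a2l differed by -0.18, Cox4i2 by -0.48, Cox6b2 by -0.68 and Atp5g2 by -0.19. Atp5g1 stood at 8.59, 9.50, 8.83 and 8.11 TPM in CR1 to CR4. In AL2, AL3 and AL4 it stood at 14.7, 5.08 and 5.52 TPM, an order in AL like that of Ucp1.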
